A study of Mus musculus with 24 samples.

Results

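The 10 genes described here are the annexin genes Anxa1, Anxa2, Anxa3, Anxa4, Anxa5 and Anxa6, the S100 genes S100a6, S100a10 and S100a11, and Lgals1, which encodes galectin 1. They were found by symbol among 15709 genes in 4 deposited tables of normalized nuclear RNA levels, and they were chosen by a gene list drawn up with the results of the P4 comparison known. All 10 are in the P4, P10 and age tables, and 9 are in the P24 table, which does not list Anxa1. The study asked which genes of spinal astrocytes differ after a hindpaw incision in newborn mice and how they change as uninjured pups grow.

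Every pup carried 1 copy of Aldh1l1-creERT2 and 1 copy of R26-LSL-Sun1.GFP. The first is a tamoxifen-inducible Cre recombinase driven by the promoter of the astrocyte gene Aldh1l1, and the second is a GFP of the nuclear membrane that Cre switches on. Flow cytometry collected the green nuclei of the lumbar dorsal horn, on the incised side, and their RNA was sequenced. Incised pups had a hindpaw incision at postnatal day 3 (P3), and naive pups had isoflurane anaesthesia alone. The tissue was collected at P4, P10 or P24, which is 1, 7 or 21 days after that, and each library came from 1 mouse. The groups were P4 incised (n = 4) and P4 naive (n = 4), P10 incised (n = 3) and P10 naive (n = 3), and P24 incised (n = 4) and P24 naive (n = 4). Libraries are named F or M for the sex in their title, with the title's number.

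For 2 of the 24 libraries the title and the other labels named different groups, and they were placed in no group. MB12 is a P10 incised pup by its title and a P10 naive pup by its characteristics. Its values stand in the P10 table and also in the age table, which otherwise holds naive libraries alone. MB16 is a P24 naive pup by its title and a P10 incised pup by its characteristics, and its values stand in the P10 table. The sex also differed between title and deposited sample sheet for MB12, MB14, MB16 and MB19, that is for both of these, P10 incised M1 and P24 naive M1. The sorted cells had the defining markers of astrocytes: all 12 genes of an astrocyte list were present in every table, with summed levels of 49560 to 80080 in P4 incised and 57080 to 71630 in P4 naive pups. Markers of other cells were present too, and their values are given beside the results with which they move. In such bulk RNA, fewer cells of a type and less RNA per cell cannot be told apart. The libraries' depth is unknown, since the tables hold normalized values and not read counts.

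Annexins are proteins that bind negatively charged membrane lipids when calcium rises, and they take part in membrane repair, vesicle traffic and the shaping of the cortical cytoskeleton. Some work as complexes with small calcium-binding S100 proteins: annexin A2 with S100A10, and annexin A1 with S100A11. Galectin 1 is a lectin that binds galactose-containing sugars on cell surface and matrix proteins, and it is known from reactive astrocytes after injury of the nervous system. S100a10 is widely used as a marker of one form of reactive astrocyte.

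The genes lie on 7 chromosomes of GRCm38 (GENCODE M21), the build the authors used (mm10). S100a6, S100a10 and S100a11 share chromosome 3 with 11 other protein-coding S100a genes, and the 3 of them span 2.95 Mb. S100a6 is at chr3:90612882-90624181, S100a11 at chr3:93520488-93526287 and S100a10 at chr3:93555080-93564643, all on the plus strand. Lgals1 is at chr15:78926725-78930465 and Anxa2 at chr9:69453620-69491795, both on the plus strand, and Anxa1 is at chr19:20373428-20390944 on the minus strand. Anxa4 is at chr6:86736840-86793584 and Anxa5 at chr3:36448923-36475894, both on the minus strand. Anxa6 is at chr11:54979108-55033445 on the minus strand and Anxa3 at chr5:96793339-96845966 on the plus strand. All 10 are protein-coding. Anxa2 overlaps the antisense gene Gm16144, and whether counting used strand is not given in the sources used here, so their reads cannot be told apart. S100a11 and Lgals1 have pseudogenes (S100a11-ps, Lgals1-ps1 and Lgals1-ps2) that could share their reads, and Anxa1, Anxa3 and Anxa4 overlap long noncoding or unclassified genes, so these values carry that uncertainty.

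RefSeq promoter sequences (GRCm38.p6, 300 bases each, of which 250 lie before the start) were at hand for 6 of the 10 genes, namely Anxa1, Anxa2, Anxa4, Anxa5, S100a6 and S100a11, with 7 promoters because Anxa4 has 2. The 4 shown belong to genes whose level was higher in every incised than in every naive library at P4. Capitals mark matches, on either strand, to the AP-1 site TGANTCA, the GC box GGGCGG, the TATA box TATAAA or the CArG box, and no match overlaps another.
Anxa1 promoter, chr19:20390622-20390921, minus strand: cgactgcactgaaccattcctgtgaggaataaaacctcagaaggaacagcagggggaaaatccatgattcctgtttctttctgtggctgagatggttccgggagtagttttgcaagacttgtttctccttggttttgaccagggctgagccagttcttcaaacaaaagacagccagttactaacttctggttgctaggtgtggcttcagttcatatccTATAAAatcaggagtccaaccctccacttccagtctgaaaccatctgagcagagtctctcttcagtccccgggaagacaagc
Anxa2 promoter, chr9:69453433-69453732, plus strand: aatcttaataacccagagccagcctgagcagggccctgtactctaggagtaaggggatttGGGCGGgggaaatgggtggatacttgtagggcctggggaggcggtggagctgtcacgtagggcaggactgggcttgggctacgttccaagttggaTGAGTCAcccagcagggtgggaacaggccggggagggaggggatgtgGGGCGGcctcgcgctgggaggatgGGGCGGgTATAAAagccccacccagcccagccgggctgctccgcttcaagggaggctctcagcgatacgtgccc
S100a6 promoter, chr3:90612644-90612943, plus strand: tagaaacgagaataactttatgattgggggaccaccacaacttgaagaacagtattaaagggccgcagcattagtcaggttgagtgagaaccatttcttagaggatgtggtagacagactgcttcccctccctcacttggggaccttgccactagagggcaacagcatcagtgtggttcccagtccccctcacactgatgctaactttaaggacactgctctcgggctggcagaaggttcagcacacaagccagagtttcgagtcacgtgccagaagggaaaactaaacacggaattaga
S100a11 promoter, chr3:93520246-93520545, plus strand: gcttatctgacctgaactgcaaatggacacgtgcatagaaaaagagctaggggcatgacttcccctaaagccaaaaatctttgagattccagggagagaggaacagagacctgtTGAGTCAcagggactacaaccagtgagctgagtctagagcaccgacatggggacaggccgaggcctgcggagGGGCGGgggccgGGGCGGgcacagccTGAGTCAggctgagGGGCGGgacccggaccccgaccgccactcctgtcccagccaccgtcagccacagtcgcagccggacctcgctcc

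The AP-1 motif, bound by Fos and Jun factors, was in 2 of the 7 promoters, against 7.81% of 32851 promoters of the same length. These were Anxa2, with a match that begins 95 bases before the start (-95), and S100a11, with matches at -136 and -38. The TATA box was in the promoters of Anxa1 (-32) and Anxa2 (-17), against 13.6% of all promoters. The GC box was in 3 of 7 (Anxa2, S100a11 and 1 of the Anxa4 promoters), against 35.7%, and the CArG box in that of Anxa5 alone, against 1.63%. The S100a6 window held none of these letters. The matches describe sequence and are not shown to be bound.

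At P4, 1 day after incision, the 3 S100 genes, Lgals1, Anxa1 and Anxa2 had higher mean levels in incised than in naive pups, while Anxa3, Anxa4, Anxa5 and Anxa6 had log2 changes of -0.43 to -0.18. The sign for Anxa3 and Anxa4 is not firm: Anxa3 ran from -1.19 to 0.15 with 1 library left out (0.15 without incised M1), and Anxa4 was at 0.07 with the replicate block and at 0.08 in the authors' deposited table. Because the genes were chosen with this comparison in view, its values are a description and carry no test. All levels are the authors' normalized expression, and each log2 change comes from a limma fit of log2(value + 1) with sex as a term.

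Lgals1 had 346.7 (F1), 416.5 (M1), 325.1 (M2) and 236.1 (M3) in incised pups, against 141.9 (F1), 63.6 (F2), 76.07 (M1) and 50.99 (M2) in naive pups. The lowest incised library was above the highest naive library. The means were 331.1 ± 74.39 in incised and 83.13 ± 40.47 in naive pups (SD, n = 4 each), a log2 change of 2.16 (SE 0.34, 95% interval 1.42 to 2.90).

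Anxa2, the annexin that forms a complex with S100a10 at the plasma membrane, had 1346 (F1), 1534 (M1), 1176 (M2) and 1181 (M3) in incised pups and 791.1 (F1), 402.4 (F2), 488.6 (M1) and 457.0 (M2) in naive pups. The groups did not overlap, and naive F1 stood above the other naive libraries, as it did for Lgals1. The means were 1309 ± 169.1 in incised and 534.8 ± 174.5 in naive pups (SD, n = 4 each), a log2 change of 1.38 (SE 0.23, 95% interval 0.89 to 1.86).

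Anxa1, an annexin known for limiting inflammation, had 105.2 (F1), 125.7 (M1), 99.16 (M2) and 41.76 (M3) in incised pups. In naive pups it had 16.11 (F1), 3.534 (M1) and 19.84 (M2) and was listed at 0 in F2. Every incised library was above every naive library. The authors kept genes with normalized expression over 20 in at least 1 group, and the naive mean was 9.872. Anxa1 is thus listed at P4 through the group where it is high. The log2 change was 3.64 (SE 0.85, 95% interval 1.81 to 5.48), and its size rests on the low values: it was 2.94 without naive F2, 4.41 without naive M2 and 2.42 with a pseudocount of 10.

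Among the S100 genes, S100a11, the partner of annexin A1, had 77.37 (F1), 71.55 (M1), 53.65 (M2) and 52.38 (M3) in incised pups, against 32.45 (F1), 28.61 (F2), 28.11 (M1) and 12.42 (M2) in naive pups. The groups did not overlap (log2 change 1.49, SE 0.42). S100a6, also called calcyclin, had 376.1 (F1), 272.2 (M1), 351.3 (M2) and 196.6 (M3) in incised pups, against 192.2 (F1), 103.4 (F2), 170.4 (M1) and 81.89 (M2) in naive pups. Its lowest incised value was just above its highest naive value (log2 change 1.25, SE 0.33). S100a10 had 131.9 (F1), 97.31 (M1), 147.8 (M2) and 69.62 (M3) in incised pups, against 70.86 (F1), 68.45 (F2), 51.34 (M1) and 40.64 (M2) in naive pups. Here incised M3 fell within the naive range, so the groups overlapped (log2 change 1.04, SE 0.36).

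The other 4 annexins overlapped between the groups. Anxa5, the annexin used to stain dying cells because it binds exposed phosphatidylserine, averaged 316.2 ± 76.53 in incised and 365.3 ± 45.62 in naive pups (SD, n = 4 each; log2 change -0.18, SE 0.23). Anxa6, which has a duplicated annexin core, averaged 709.2 ± 323.4 in incised and 769.6 ± 112.0 in naive pups (SD, n = 4 each; -0.23, SE 0.28). Its incised libraries spread from 435.7 (M2) to 1171 (M3). Anxa3 ran from 5.048 to 63.55 in incised and from 26.3 to 48.43 in naive pups (log2 change -0.43, SE 0.67). Anxa4 ran from 7.373 to 73.54 in incised and from 21.35 to 35.47 in naive pups (-0.40, SE 0.67). For Anxa3 and Anxa4 the incised libraries thus spanned a wider range than the naive ones, on both sides.

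Anxa1, Anxa2, S100a6, S100a11 and Lgals1, 5 of 10 genes, were higher in every incised library than in any naive library, beside 3.08% of the 14243 genes of the P4 table. None was lower in every incised library, beside 2.82% of all genes. The median log2 change of the 10 genes was 1.15, beside -0.02 for all genes. In the authors' deposited table, 3 of the 10 genes had an adjusted p under 0.05 as higher in incised pups, beside 0.344% of all genes (49 of 14243). The authors' deposited table gives Lgals1 a log2 fold change of 2.14 (adjusted p = 1.67e-06), Anxa2 1.36 (0.00016) and Anxa1 3.23 (0.00697). In the authors' deposited table the 3 S100 genes did not pass: S100a6 had an adjusted p of 0.0783, S100a11 of 0.1 and S100a10 of 0.195. Since these calls chose the genes, nothing is read from these shares.

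**Figure D1:**
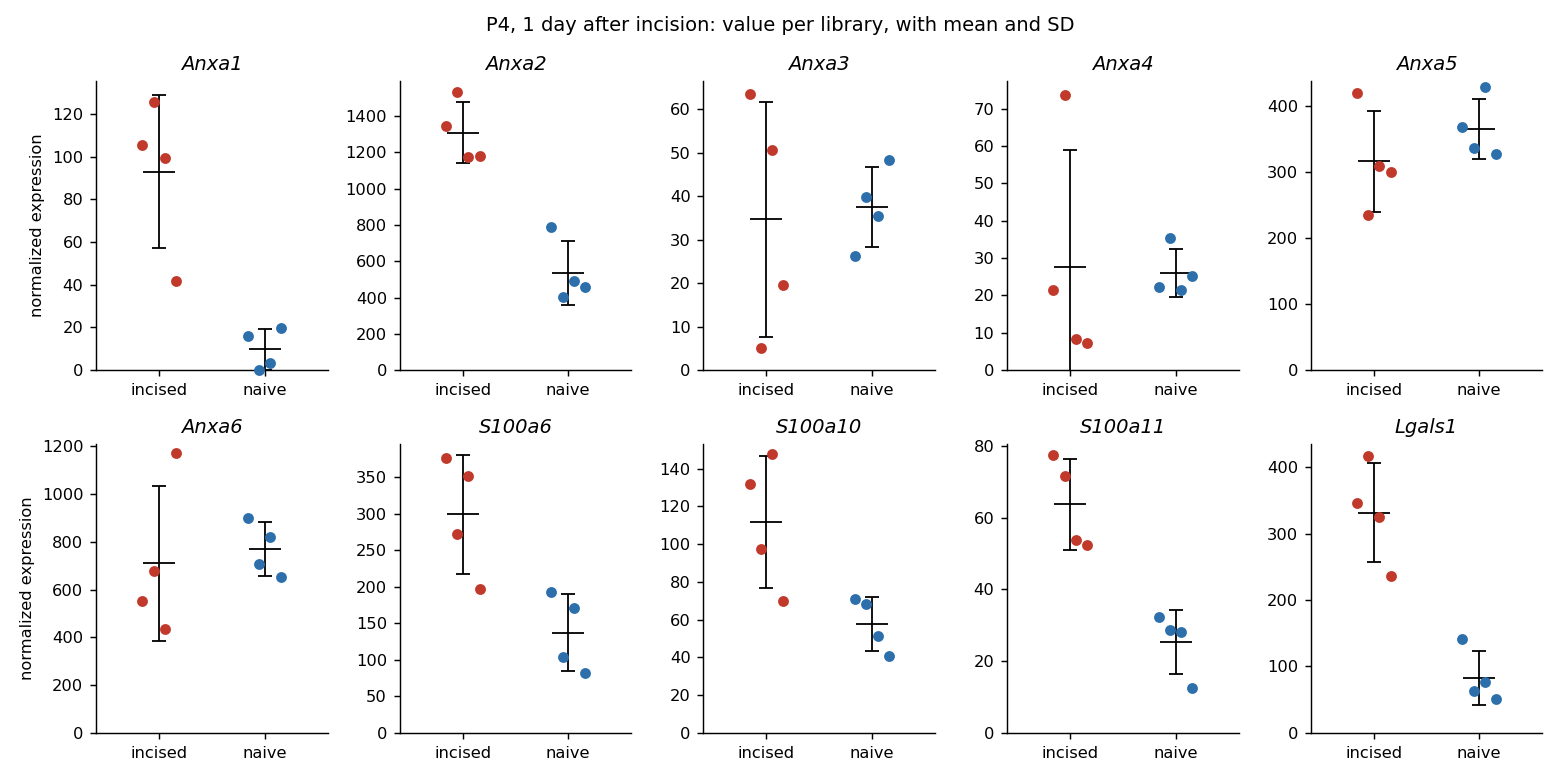
Normalized expression (y axis, from 0) of the 10 genes at P4 in 4 incised (red) and 4 naive (blue) libraries. Points are libraries, black lines are the mean with SD, and error bars are cut off at 0. Anxa1, Anxa2, S100a6, S100a11 and Lgals1 show no overlap between the groups, while the other annexins and S100a10 overlap.

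The summed markers of some other cell types were higher in incised pups at P4 as well. The summed level of a mural cell list (pericytes and vascular smooth muscle, 10 of 12 genes present) was 1073 to 1499 in incised and 643.3 to 1013 in naive pups, without overlap. Much of this lay in Acta2, smooth muscle actin, with 181.6 ± 118.3 in incised and 24.31 ± 2.151 in naive pups, and in Tagln, with 170.4 ± 74.33 in incised and 44.74 ± 14.05 in naive pups (SD, n = 4 each). Notch3, with the highest normalized value in the list, was at 327.8 ± 66.18 in incised and 272.7 ± 57.58 in naive pups (SD, n = 4 each), and 2 of its defining genes, Myh11 and Higd1b, are not in the table. Of the 10 mural genes present, 7 had a log2 change above 0, while Kcnj8 (-0.25), Abcc9 (-0.21) and Des (-0.13) were below. The oligodendrocyte precursor list (8 of 8 present) summed to 1513 to 1897 in incised and 1057 to 1324 in naive pups, also without overlap. In it 6 genes were above 0, while Cspg4 (-0.14) and C1ql1 (-0.44) were below. Olig1 had the highest level of that list, with a mean of 852.8 in incised and 570.2 in naive pups. In the fibroblast and meningeal list (7 of 12 present) 6 genes had a log2 change above 0 and the median was 0.40, beside 0.24 for the mural and 0.19 for the precursor list. Col1a1, a chain of collagen I, had a log2 change of 1.21 (SE 0.39) and Islr 0.85 (SE 0.43), while Col1a2, with the highest value of that list, had -0.11 (SE 0.25). The sums of that list (1452 to 2582 in incised, 1498 to 2062 in naive pups), the endothelial list (268.2 to 510.5 in incised, 312.3 to 423.1 in naive pups) and the microglial list (698.8 to 1114 in incised, 811.8 to 979.9 in naive pups) overlapped. The median log2 change was 0.00 for the endothelial and 0.01 for the microglial list. The part of mural cells, precursors and fibroblasts in the levels of the 10 genes was not tested. Of the 12 astrocyte genes, 3 had a log2 change above 0, and the median was -0.09. The astrocyte gene Gfap was at 8891 ± 999.9 in incised and 12100 ± 2871 in naive pups (SD, n = 4 each; log2 change -0.47, SE 0.18). Fgfr3, of the same list, was at 2506 ± 304.6 in incised and 1754 ± 235.0 in naive pups, without overlap (SD, n = 4 each; 0.47, SE 0.17).

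**Figure D2:**
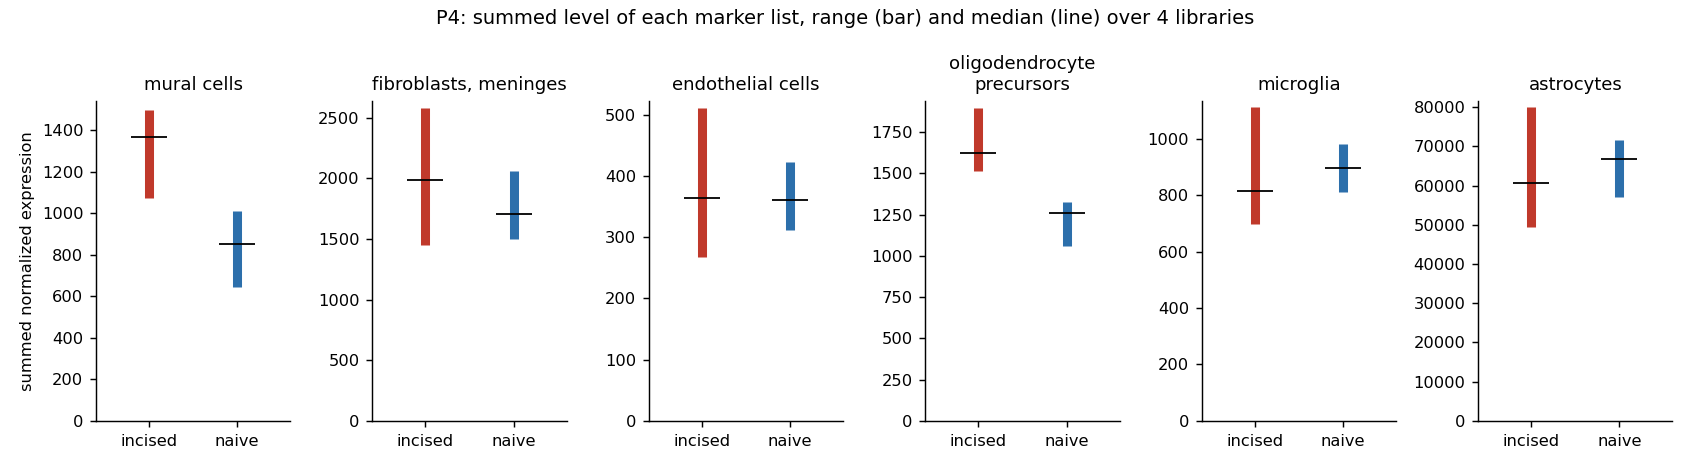
Summed normalized expression (y axis, from 0) of 6 lists of cell type markers at P4, as the range (bar) and median (line) over 4 incised (red) and 4 naive (blue) libraries. The mural and oligodendrocyte precursor sums do not overlap between the groups, and the other 4 do.

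The genes with which this family works were followed through lists of other annexins, S100 proteins, galectins, bound proteins and calcium-triggered membrane repair. Of the membrane repair list (18 genes, 13 in the P4 table), 12 had a log2 change above 0 at P4 and the median was 0.48, beside 47.8% of all genes above 0. Cav1, which encodes the membrane coat protein caveolin 1, had a log2 change of 1.67 (SE 0.38) at P4, and Pdcd6ip, which encodes the ESCRT adaptor ALIX, 0.10 (SE 0.25). The list of other S100 genes had a median of -0.01 (5 of 14 in the table). It also holds S100pbp, the gene of an S100-binding protein (log2 change -0.26, SE 0.61). The S100 genes in it had 0.34 (SE 0.25) for S100a16, -0.01 (SE 0.22) for S100b, 0.44 (SE 0.24) for S100a1 and -0.05 (SE 0.38) for S100a13. Galectins and related genes other than Lgals1 had a median of -0.32, and none of the 5 in the table was above 0. The bound proteins had a median of 0.07 (16 of 22 in the table), and the only other annexin in the table, Anxa7, a log2 change of 0.23 (SE 0.31). These P4 values, too, carry no test.

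At P10, 7 days after incision, none of the 10 genes differed by the test. limma with Benjamini-Hochberg adjustment called 0% of the 13699 genes in either direction at P10, and 602 genes had an unadjusted p under 0.05. The authors' deposited table, which also holds MB12 and MB16, calls 2 genes at P10, none of them among the 10. For 9 of the 10 genes the log2 change lay between -0.26 and 0.36. Lgals1 had 219.6 (F2), 191.0 (M1) and 278.2 (M2) in incised pups and 316.9 (F1), 161.7 (F2) and 253.8 (M1) in naive pups. The groups overlapped widely, and the 95% interval of the log2 change ran from -0.84 to 0.66. Anxa2 had 787.7 (F2), 636.4 (M1) and 1286 (M2) in incised pups and 1088 (F1), 688.6 (F2) and 1038 (M1) in naive pups. Its groups overlapped as well, with a log2 change of -0.17 (95% interval -0.72 to 0.39). Anxa1 had 47.2 (F2), 64.46 (M1) and 67.09 (M2) in incised pups, against 76.57 (F1), 51.32 (F2) and 64.23 (M1) in naive pups (log2 change -0.18, 95% interval -1.33 to 0.96).

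The S100 genes overlapped between the groups at P10 too. S100a6 averaged 263.9 ± 62.07 in incised and 260.9 ± 60.04 in naive pups (SD, n = 3 each), with a log2 interval of -0.77 to 0.65. S100a10 averaged 195.9 ± 27.9 in incised and 168.6 ± 35.67 in naive pups (SD, n = 3 each), with an interval of -0.62 to 0.96. S100a11 averaged 54.48 ± 5.218 in incised and 62.67 ± 41.8 in naive pups (SD, n = 3 each), and the naive libraries ran from 24.94 (F2) to 107.6 (M1). Of the remaining annexins, Anxa5 averaged 619.0 ± 139.6 in incised and 576.1 ± 191.6 in naive pups, Anxa6 711.7 ± 89.66 in incised and 831.6 ± 174.0 in naive pups, and Anxa3 34.26 ± 18.65 in incised and 27.06 ± 16.24 in naive pups (SD, n = 3 each).

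Anxa4, an annexin known from epithelial membranes, was the gene of the 10 whose groups did not overlap at P10. It had 40.42 (F2), 68.47 (M1) and 40.73 (M2) in incised pups, against 15.07 (F1), 19.11 (F2) and 2.305 (M1) in naive pups. Every incised library was above every naive library, beside 5.02% of all genes higher without overlap and 4.45% lower, so 1 of 10 genes is near the share among all genes. The means were 49.87 ± 16.11 in incised and 12.16 ± 8.772 in naive pups (SD, n = 3 each), a log2 change of 2.62 (SE 0.78, 95% interval 1.02 to 4.21). In limma the unadjusted p was 0.00231 and the Benjamini-Hochberg adjusted p 0.792, so Anxa4 did not pass. Nor did it in the authors' deposited table, which also holds MB12 and MB16 (log2 fold change 1.70, adjusted p = 0.694). The change was 1.20 without naive M1, 4.03 without incised F2 and 1.63 with a pseudocount of 10. The summed mural list (9 of 12 present) did not overlap at P10 either, with 1006 to 1092 in incised and 823.2 to 991.4 in naive pups, and its median log2 change was 0.04. The sums of the other marker lists overlapped at P10, and the part of mural cells in the values of Anxa4 was not tested. Within the astrocyte list 8 of 12 genes had a log2 change above 0, with a median of 0.07. Gfap of that list was lower without overlap, with 12800 to 18530 in incised and 22050 to 26980 in naive pups (log2 change -0.69, SE 0.15, limma adjusted p = 0.561).

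The 2 libraries in no group had low values of several of these genes. In the P10 table MB16 had 6.797 for Anxa1, 332.7 for Anxa2, 99.21 for S100a6, 123.8 for S100a10 and 73.41 for Lgals1, each below all 6 assigned P10 libraries. MB12 was below all 6 for 4 genes, with 41.84 for Anxa1, 545.0 for Anxa2, 588.1 for Anxa6 and 174.5 for S100a6. With the groups as in the characteristics, the log2 change at P10 was -0.97 for Anxa1 and 2.15 for Anxa4, and with those of the titles it was -0.28 for Anxa1 and 2.08 for Anxa4. None of the 10 genes passed under either reading.

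**Figure D3:**
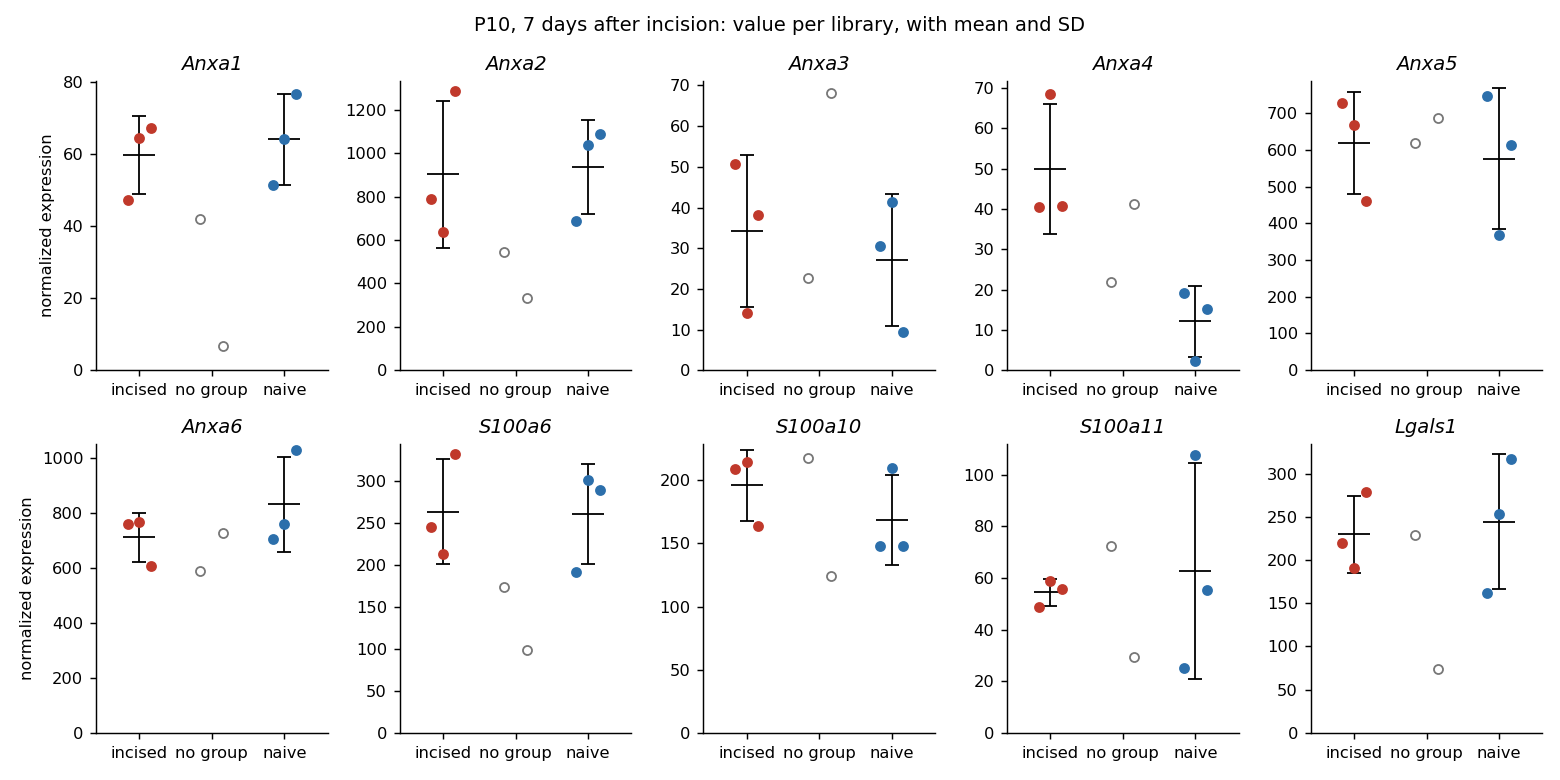
Normalized expression (y axis, from 0) of the 10 genes at P10 in 3 incised (red) and 3 naive (blue) libraries, with mean and SD, and in the 2 libraries whose labels conflict (open, MB12 left and MB16 right, in no group). Anxa4 shows no overlap between incised and naive libraries, and MB16 lies below all assigned libraries for Anxa1, Anxa2, S100a6, S100a10 and Lgals1.

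At P24, 21 days after incision, none of the 9 genes in the table differed by the test either. limma with Benjamini-Hochberg adjustment called 0% of the 15246 genes in either direction at P24, although 1525 had an unadjusted p under 0.05. The authors' deposited table calls 8 genes at P24, none of them among the 9. For none of the 9 were all incised libraries above or below all naive libraries, beside 2.42% of all genes higher and 2.54% lower without overlap. Anxa2 had 199.9 (F1), 133.2 (F2), 212.5 (M1) and 90.6 (M2) in incised pups, against 195.4 (F2), 223.9 (F3), 173.9 (M1) and 232.4 (M2) in naive pups. Incised F2 and M2 were below all naive libraries and the others within their range (log2 change -0.44, SE 0.22, adjusted p = 0.519). Anxa5 averaged 1064 ± 211.4 in incised and 1278 ± 125.0 in naive pups (SD, n = 4 each; limma log2 change -0.28, SE 0.13, adjusted p = 0.473). Anxa6 averaged 578.5 ± 72.31 in incised and 702.3 ± 75.0 in naive pups (SD, n = 4 each; limma log2 change -0.28, SE 0.13, adjusted p = 0.486). These 2 annexins were the only ones of the 9 with an unadjusted p under 0.05.

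Lgals1 was at 165.6 (F1), 97.2 (F2), 128.3 (M1) and 85.77 (M2) in incised and 165.8 (F2), 113.4 (F3), 79.88 (M1) and 139.9 (M2) in naive pups at P24, with nearly the same range in both groups (log2 interval -0.54 to 0.42). S100a6 averaged 134.8 ± 29.05 in incised and 138.9 ± 30.44 in naive pups (SD, n = 4 each; interval -0.46 to 0.38), and S100a10 146.4 ± 21.05 in incised and 130.4 ± 12.95 in naive pups (SD, n = 4 each; -0.24 to 0.56). S100a11 averaged 23.92 ± 6.287 in incised and 34.29 ± 10.5 in naive pups (SD, n = 4 each; -1.26 to 0.27). Anxa4 ran from 69.01 to 82.44 in incised and from 49.92 to 104.7 in naive pups, which overlapped. Anxa3 ran from 19.47 to 48.03 in incised and from 11.31 to 65.42 in naive pups. At P24 the summed oligodendrocyte markers were lower in incised pups (71030 to 84890) than in naive pups (93680 to 107400), as were those of their precursors (3685 to 4874 in incised, 5089 to 6882 in naive pups) and of the Schwann cell list (45260 to 53990 in incised, 57030 to 67180 in naive pups). The endothelial sums were higher without overlap (352.6 to 492.5 in incised, 264.4 to 341.7 in naive pups), with 6 of 8 genes above 0 and a median log2 change of 0.51. The part of these cells in the values of the annexins was not tested.

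The difference of the incision effect between P24 and P10 was tested with 1 limma model that joined the incision tables of the 3 ages. None of the 9 genes passed, and 1 of 13200 genes (0.00758%) was called. The estimate furthest from 0 was that of Anxa4, with an effect at P24 minus that at P10 of -2.14 (95% interval -3.88 to -0.40; limma adjusted p = 0.867). Anxa4 is listed at P10 through its incised libraries, so this estimate is a value only. For Lgals1 that difference was -0.09 (95% interval -1.06 to 0.88) and for Anxa2 -0.37 (-1.18 to 0.43). Differences that involve P4 share the libraries that chose the genes and are given as values only: the effect at P10 minus that at P4 was -2.09 (SE 0.47) for Lgals1 and -1.42 (SE 0.39) for Anxa2 on the log2 scale.

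**Figure D4:**
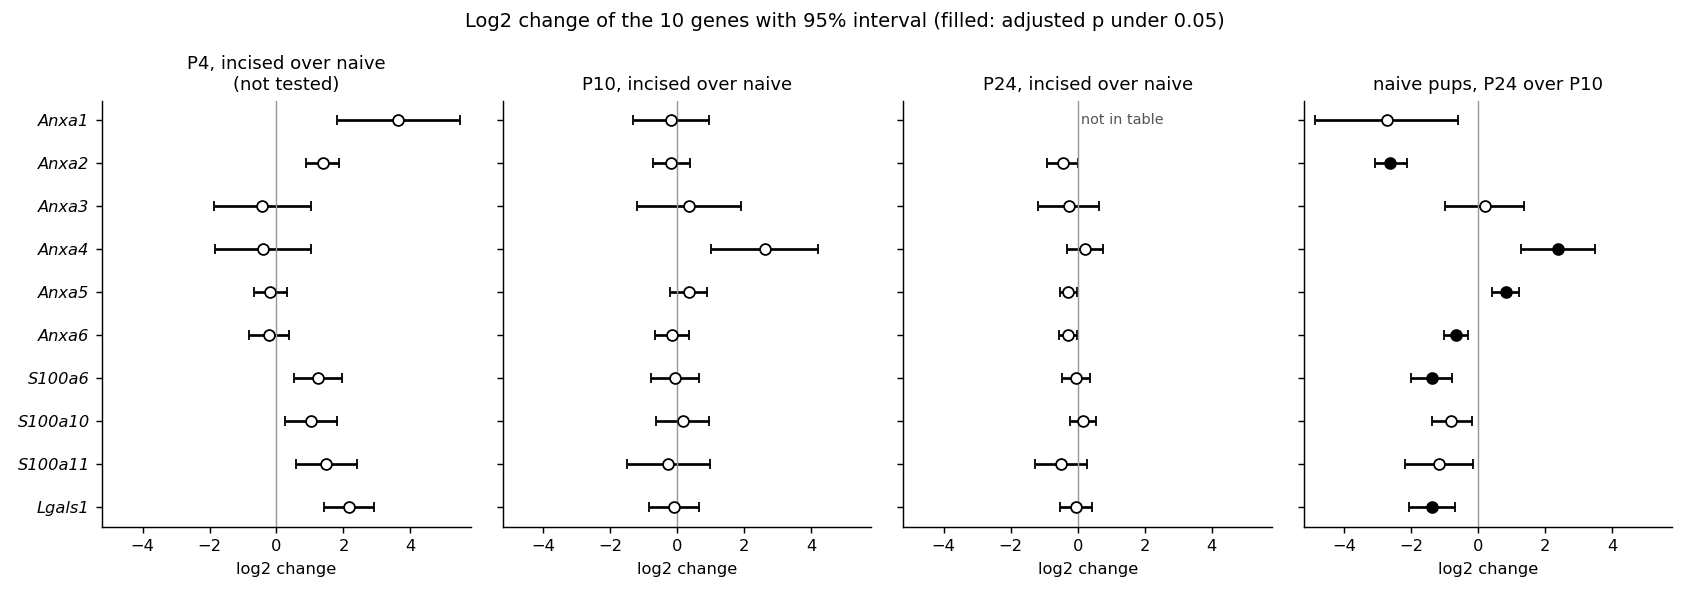
Log2 change of the 10 genes with its 95% interval for incised over naive pups at P4, P10 and P24 and for naive pups at P24 over P10, with filled points where the adjusted p was under 0.05. The P4 panel carries no test. Lgals1 stands at 2.16 at P4 and near 0 at P10 and P24, and the filled points are Anxa2, S100a6, Lgals1 and Anxa6 (lower at P24) and Anxa4 and Anxa5 (higher at P24).

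In naive pups, 6 of the 10 genes differed between P24 and P10, in both directions. At P24 the levels of Anxa2, S100a6, Lgals1 and Anxa6 were lower than at P10 and those of Anxa4 and Anxa5 higher, by limma with Benjamini-Hochberg adjustment. Among all genes 5.43% were called lower and 8.86% higher at P24 than at P10 (813 and 1327 of 14982). The P4 libraries are in the fit as well, and they enter this difference through the shared sex term and the estimate of the spread. Without P4 naive F2, Anxa1 also passed (limma adjusted p = 0.0125). Anxa1 is listed in the age table through its P10 libraries, where it is high, so this is given as a value only. The difference between P24 and P10 is read within the age table, which was normalized on its own, so its levels are not those of the incision tables.

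Anxa2 had 942.0 (F1), 481.4 (F2), 585.6 (M1) and 545.2 (M2) at P4, then 1296 (F1), 807.8 (F2) and 1215 (M1) at P10, and 166.9 (F2), 191.5 (F3), 146.6 (M1) and 199.7 (M2) at P24. All P24 libraries were below all younger libraries. The mean was 176.2 ± 24.12 at P24 (n = 4) and 1107 ± 261.9 at P10 (SD, n = 3), a log2 change of -2.62 (SE 0.23, limma adjusted p = 8.92e-08), or 6.13-fold lower at P24. Anxa6 averaged 599.4 ± 68.26 at P24 (n = 4) and 977.1 ± 214.7 at P10 (SD, n = 3), without overlap (log2 change -0.67, SE 0.17, limma adjusted p = 0.0116). The call of Anxa6 was lost with the replicate block (-0.56, limma adjusted p = 0.0978) and without limma's trend and robust settings (0.0702), in a range of 0.00325 to 0.0978 over all alternatives.

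Lgals1 had 169.6 (F1), 76.36 (F2), 91.53 (M1) and 61.05 (M2) at P4, 379.0 (F1), 190.3 (F2) and 298.1 (M1) at P10, and 140.9 (F2), 96.5 (F3), 67.04 (M1) and 119.6 (M2) at P24. All P10 libraries were above all P4 and all P24 libraries. The log2 change at P24 against P10 was -1.38 (SE 0.34, limma adjusted p = 0.00742). S100a6 had its highest mean at P10 as well, with 163.6 ± 62.85 at P4 (n = 4), 307.5 ± 71.59 at P10 (n = 3) and 118.3 ± 26.26 at P24 (SD, n = 4), and a log2 change of -1.39 at P24 against P10 (SE 0.30, limma adjusted p = 0.00253).

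S100a10, S100a11 and Anxa1 also had their highest mean at P10 but did not pass between P24 and P10. S100a10 had 68.54 ± 16.99 at P4 (n = 4), 199.3 ± 40.95 at P10 (n = 3) and 111.4 ± 11.77 at P24 (SD, n = 4). Its 3 ages did not overlap, and its change at P24 against P10 was -0.80 (SE 0.29, limma adjusted p = 0.0674). It passed with the characteristics' groups (limma adjusted p = 0.0314) and without P10 naive F1 (0.0485), in a range of 0.0314 to 0.379 over all alternatives. Anxa1 had 90.06 (F1), 59.39 (F2) and 74.21 (M1) at P10, above every P4 library (0 to 23.27) and every P24 library (1.937 to 21.69). Its means were 11.57 at P4 and 13.45 at P24, under the authors' threshold of 20, so it is listed through its P10 libraries. Its changes against P10 are thus values only, also where they passed. Its log2 change at P24 against P10 was -2.72 (SE 1.00, limma adjusted p = 0.0885), and it passed with a pseudocount of 10 (limma adjusted p = 0.00204, in a range of 0.00204 to 0.193 over all alternatives). S100a11 had 127.9 (M1), 67.12 (F1) and 29.68 (F2) at P10, against 14.64 to 38.19 at P4 and 19.81 to 37.55 at P24, so P10 naive F2 lay within the range of the other ages (limma log2 change at P24 against P10 -1.17, SE 0.49, adjusted p = 0.123). That change was -1.69 without P10 naive F2, where it passed (limma adjusted p = 0.0233), and -0.50 without P10 naive M1 (0.621), the ends of the range over all alternatives.

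Anxa4 and Anxa5 were highest at P24. Anxa4 had 26.41 (F1), 42.37 (F2), 25.55 (M1) and 30.06 (M2) at P4, 17.7 (F1), 22.08 (F2) and 2.659 (M1) at P10, and 43.33 (F2), 51.65 (F3), 47.22 (M1) and 91.4 (M2) at P24. P10 was lowest and P24 highest, without overlap. The log2 change at P24 against P10 was 2.38 (SE 0.53, limma adjusted p = 0.00369). Anxa5 had 433.1 ± 54.89 at P4 (n = 4), 670.5 ± 223.3 at P10 (n = 3) and 1104 ± 109.0 at P24 (SD, n = 4), a log2 change of 0.82 at P24 against P10 (SE 0.19, limma adjusted p = 0.00512). Its P10 libraries ran from 426.6 (M1) to 864.8 (F2), and the lowest lay within the P4 range. Anxa3 had 44.32 ± 10.88 at P4 (n = 4), 31.39 ± 18.69 at P10 (n = 3) and 36.97 ± 19.86 at P24 (SD, n = 4), and the ages overlapped (0.19, SE 0.56, limma adjusted p = 0.874).

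Counted by overlap, Anxa1, Anxa2, Anxa6, S100a6, S100a10 and Lgals1 were lower in every P24 than in every P10 library, beside 10.4% of 14985 genes, and Anxa4 and Anxa5 were higher, beside 12.1%. Anxa1 is listed through its P10 libraries, so nothing is read from its place in the counts against P10 or from its passing. The count of genes that passed rests in part on P10 naive M1: without it 3 of the 10 passed, and Anxa4 (1.40, adjusted p = 0.0671), Anxa5 (0.51, 0.104) and Lgals1 (-1.14, 0.0734) did not. Lgals1 did not pass with the replicate block either (limma adjusted p = 0.0854), and Anxa1 did (0.0359). Over all alternatives the limma adjusted p ran from 0.00171 to 0.0671 for Anxa4, from 0.00146 to 0.104 for Anxa5 and from 0.00165 to 0.0854 for Lgals1. Between P10 and P4, a comparison that shares the naive P4 libraries and is given without a test, the log2 change was 3.42 (SE 1.00) for Anxa1, 1.53 (SE 0.34) for Lgals1 and 1.52 (SE 0.29) for S100a10, and these 3 were higher in every P10 than in every P4 library, beside 10.8% of all genes. It was 1.17 for S100a11, 0.99 for S100a6, 0.80 for Anxa2 and 0.53 for Anxa5. Anxa4, with -1.53 (SE 0.53), was lower in every P10 than in every P4 library, beside 8.84% of all genes.

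**Figure D5:**
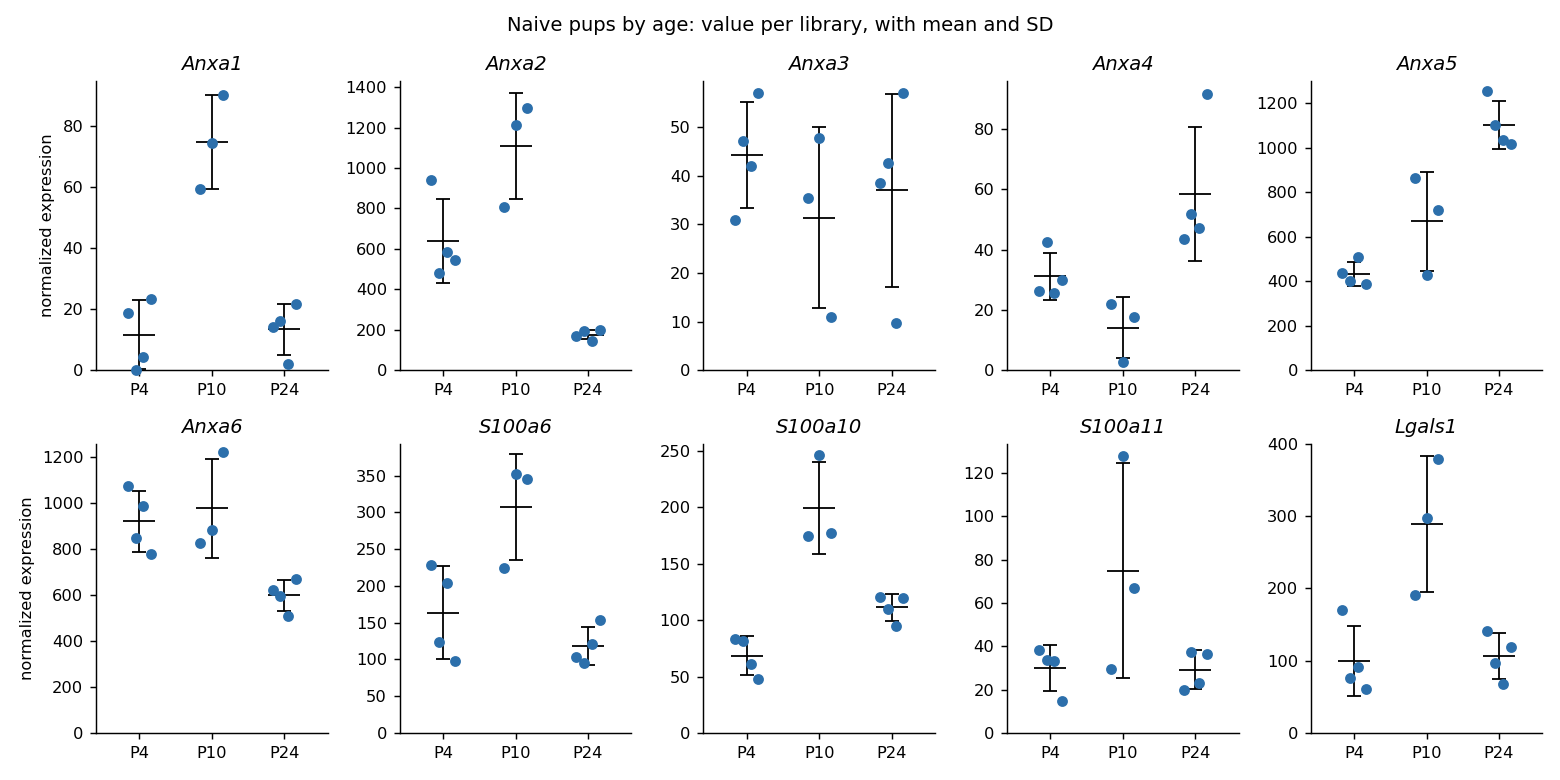
Normalized expression (y axis, from 0) of the 10 genes in naive pups at P4 (4 libraries), P10 (3) and P24 (4), with mean and SD. Lgals1, S100a10 and Anxa1 are highest at P10 without overlap, Anxa2 is lowest at P24, and Anxa4 and Anxa5 are highest at P24.

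The levels of cell type markers moved with age as well. For scale, 8.86% of all genes were called higher and 5.43% lower at P24 than at P10. The oligodendrocyte list (10 of 10 present) summed to between 1321 and 2511 at P4, between 12460 and 20790 at P10 and between 81090 and 94200 at P24, and 9 of its 10 genes were called higher at P24 than at P10. The precursor list summed to between 1274 and 1608 at P4, between 1564 and 2511 at P10 and between 4307 and 5810 at P24. The mural list had sums of 775.7 to 1215 (P4), 963.6 to 1168 (P10) and 540.5 to 1003 (P24). The sums at P24 were also above those at P10 without overlap for neurons (10270 to 13560 at P24, 5086 to 7243 at P10; 5 of 12 genes called higher), microglia (873.1 to 1278 at P24, 626.0 to 775.6 at P10; 3 of 8 called higher), other leukocytes and blood (1129 to 2418 at P24, 679.3 to 1103 at P10; none called) and the Schwann cell list (49900 to 59530 at P24, 5022 to 6565 at P10; 3 of 6 called higher). Those of endothelial cells were lower (231.9 to 280.2 at P24, 282.3 to 342.4 at P10; none called). Of the leukocyte and blood list 4 of 11 genes were present, and they were split. Lyz2 (2.42) and the hemoglobin gene Hba-a1 (1.10) had log2 changes above 0 at P24 against P10, and Cd79a (-1.01) and Mrc1 (-0.77) below 0. In the mural list Acta2 (log2 change -2.91, SE 0.45), Tagln (-1.80, SE 0.42) and Notch3 (-1.12, SE 0.23) were lower at P24 than at P10 by limma (adjusted p = 0.000125, 0.00511 and 0.00183 in that order). Vtn, of the same list, was higher at P24 (2.10, SE 0.38, limma adjusted p = 0.000659). Of 12 astrocyte markers 6 were called lower and 3 higher at P24 than at P10, with -0.79 for Aldh1l1, -0.76 for Gfap, -0.75 for Slc1a3 and -0.52 for Aqp4 on the log2 scale among those lower. Those higher were Gjb6 (1.18), Gja1 (0.69) and Aldoc (0.68). The part of these cell types in the ages' levels of the 10 genes was not tested.

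Among the genes the family works with, some also passed between P24 and P10 in naive pups, a comparison that called 8.86% of all genes higher and 5.43% lower. Of the bound proteins (16 of 22 tested), 3 were lower and none higher. They were Actn1, the actin cross-linker alpha-actinin 1 (96.72 ± 25.78 at P24, n = 4, and 242.5 ± 47.81 at P10, SD, n = 3; log2 change -1.35, limma adjusted p = 0.000888), Itgb1, the beta 1 integrin to which galectin 1 can bind (-0.83, 0.0024), and Nrp1, the receptor neuropilin 1 (-0.89, 0.000388). Of the other galectins and related genes (5 of 9 tested), Lgalsl was lower (-0.80, limma adjusted p = 0.008) and none was higher. Of the membrane repair genes (14 of 18 tested), 3 were higher and none lower: Cav1 (1.17, limma adjusted p = 0.0301), Pdcd6ip (1.01, 0.000976) and Otof, a ferlin that binds calcium and membranes (1.35, 0.00917). None of the 5 tested genes of the other S100 list, which includes S100pbp, passed: S100a16 had a log2 change of 0.02 (SE 0.18), S100b of -0.12 (SE 0.17) and S100a1 of 0.05 (SE 0.19). Neither other annexin passed, with 0.05 (SE 0.24) for Anxa7 and 1.69 (SE 1.24) for Anxa11. No gene of these 5 lists was called for incision at P10 or P24.

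Over the 11 naive libraries of the age table, the genes whose log2 levels followed Anxa2 most closely were Gm11266 (Pearson r = 0.970), Pnisr (0.966), Rbmx (0.961), Dclk1 (0.960) and Nrp1 (0.952). This is a description across 11 libraries of 3 ages, and libraries of an age share whatever differs between ages. Of the other 9 genes, Anxa6 (r = 0.91) and S100a6 (0.81) were closest to Anxa2, followed by Lgals1 (0.63), S100a11 (0.57), Anxa1 (0.48), S100a10 (0.27) and Anxa3 (-0.01). Anxa5 (-0.70) and Anxa4 (-0.76) ran against it. S100a10, whose protein binds annexin A2, ranked 4365 of 14981 genes by this measure.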

How the data were processed

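The 10 genes and all lists were chosen with earlier results of these data known. The submitters' processing notes name STAR, Salmon and DESeq2 and the build mm10, without versions. The signal per gene and library is what the authors deposited as normalized expression from DESeq2, with each table normalized on its own. Its values are not whole reads. Beside it stand log2 fold changes that the authors deposited, their standard errors and test statistics (each a score of the authors), p-values deposited raw and adjusted, and a coefficient of variation that the authors deposited as a ratio. A first filter of the authors, per the deposited description, asked for 10 counts or more in 4 or more samples. They fitted sex and treatment at each age. Afterwards they kept genes with normalized expression over 20 and a coefficient of variation under 0.65 in at least one group, so genes that fail these filters are not analysed here.

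limma 3.58.1 in R 4.3.3 (statmod 1.5.0), with intensity trend and robust settings, was fitted to log2(value + 1) of all genes with a mean of at least 10, with group and sex (from the titles) as terms. Calls are 2-sided, with the p adjusted after Benjamini and Hochberg under 0.05. For low genes the size of a fold change on the log2(value + 1) scale depends on the pseudocount. The fit was tested on simulated data with large changes added to genes of high level. That cannot show how it does for small changes or for low genes. P-values measure the spread between pups, and nothing in the labels gives litters. Incised and naive libraries with the same replicate label had correlations of their deviations of -0.12 to 0.03. With only 2 or 3 such pairs at an age, these cannot show whether pups were paired, and the main fit used no pairing. No pair of libraries held identical values. Named were the 10 genes, the list genes that passed a tested comparison or else the 3 with the highest mean, and the 5 genes with the highest r to Anxa2. Promoter motifs were searched with Python 3.11.15. Alternatives changed the pseudocount, filter, normalization, sex term, limma settings, label reading of MB12 and MB16, and each library in turn.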

Additional observations from a re-analysis of the deposited data

Results flagged for a closer look

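The 2 libraries that no group holds, MB12 and MB16, had values above the range of the 3 P10 naive libraries for 3 of the 10 genes. MB12 had 21.87 for Anxa4, against 2.305 to 19.11 in the P10 naive libraries, and 217.9 for S100a10, against 147.9 to 209.8. MB16 had 68.15 for Anxa3, against 9.343 to 41.24 in the P10 naive libraries, and 41.23 for Anxa4, against 2.305 to 19.11. Of 38 sets of 4 libraries (a gene in a group), 0 had a library far enough from the others to be singled out.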

How the results depend on the processing

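Of the comparisons at P10 and P24, none of the 10 genes passed under any alternative tried. The genes called among all genes at P10 (0) became 1 with quantile normalization, 8 with the replicate block, 2 in the authors' deposited table and 0 to 18 with 1 library left out. At P24 (0) they became 16 with the replicate block, 8 in the authors' deposited table and 0 to 5 with 1 library left out. For P24 against P10 in naive pups, 6 of the 10 genes became 3 to 7 with 1 library left out and 5 with the replicate block, under which all genes called were 1287 in place of 2140. With the groups of the characteristics 0 genes differed in the incision effect between P24 and P10, against 1, and 0 to 6 with 1 library left out. Nothing in the labels says that pups with the same replicate label were paired, and the cause of each move was not tested.

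Changes of sign concerned values that did not pass or, at P4, were given without a test. At P10 the log2 change was -0.40 for Anxa3, 0.06 for Anxa6, 0.02 for Lgals1 and 0.04 for S100a11 with the replicate block, 0.02 for S100a6 and 0.03 for S100a11 with no sex term or the sheet's sex, 0.04 for S100a11 with the titles' groups, and for S100a10 -0.10 with the characteristics' groups and -0.02 in the authors' deposited table. At P24 Anxa3 had 0.04 with the replicate block, and between P24 and P10 in naive pups -0.55 with it and -0.17 with quantile normalization. With 1 library left out, the ranges at P10 were -0.40 to 0.03 for Anxa1, -0.38 to 0.06 for Anxa2, -0.80 to 1.51 for Anxa3, -0.20 to 0.10 for S100a6, -0.16 to 0.50 for S100a10, -0.90 to 0.38 for S100a11 and -0.30 to 0.11 for Lgals1. At P24 they were -0.81 to 0.17 for Anxa3, -0.15 to 0.14 for S100a6 and -0.23 to 0.10 for Lgals1, and for P24 against P10 -0.39 to 0.74 for Anxa3.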
